A study of Mus musculus with 2 samples.

Results

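The intergenic peaks examined here were those of the deposited mouse hippocampus peak list that overlapped no gene and lay more than 3 kb and at most 50 kb from the nearest one. They were selected by position alone, from the RefSeq gene table of GRCm38 (mm10), with genes of every type counted, and 1216 of the 5326 peaks in the list met the rule. Cleavage Under Targets and Tagmentation (Cut&Tag) uses an antibody on permeable nuclei to bring a transposase to a chromatin protein, so that the DNA beside the protein is cut, tagged and sequenced. The series holds 1 library made with an anti-Smad4 antibody and 1 made with an IgG control antibody, both from hippocampus nuclei, and it asks where Smad4 sits in the genome. The study as a whole used male mice of the APP/PS1 Alzheimer's disease model and wild-type littermates of the same age, but which of them gave these 2 libraries, and whether animals were pooled, is not given in the sources used here. The study presents its Cut&Tag peaks as those of Smad4, whereas the peak list used here carries no antibody in its name and belongs to the record of the IgG library, so no peak was assigned to either antibody. With 1 list there was no replicate, and each interval given here is a 95% interval for counting error alone, with no p-value.

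Smad4 is the shared partner of the receptor-activated Smads. On TGF-β or BMP signals it enters the nucleus with them and helps to turn genes on or off. DNA between genes holds enhancers, which can act on a promoter over long distances, but also long stretches with no known role and many repeated sequences. A peak there has no assigned target, and the nearest gene is given only as its address.

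The strongest run of these peaks lay beside Mir101c, and the mature sequences of this microRNA and of 3 others that were nearest to a peak are shown to identify these neighbours. A microRNA pairs with its targets mainly through its seed, bases 2 to 8, which is in capitals. The sequences are those of RefSeq (GRCm38.p6).
mmu-miR-101c (chr9:3038680-3038698, minus strand): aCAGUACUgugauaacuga
mmu-miR-138-5p (chr9:122682898-122682920, plus strand): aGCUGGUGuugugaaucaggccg
mmu-miR-135a-5p (chr10:92072141-92072163, minus strand): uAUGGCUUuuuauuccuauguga
mmu-miR-146a-5p (chr11:43374435-43374456, minus strand): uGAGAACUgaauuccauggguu
A microRNA gene was the nearest gene of 16 of the 1216 peaks, at 10 genes. Mature sequences were matched for 9 of these genes, and their 13 mature forms had 13 different seeds. Mir101c was nearest to 7 peaks. Each of the other 9 genes, among them Mir124a-3, was nearest to 1 peak, and none of those peaks had a pileup above 3. The share of positions nearest to microRNA genes was not computed. Small RNA genes of all kinds were nearest to 5.76% of the peaks (4.51% to 7.22%) and to 6.53% of positions 3 to 50 kb from genes. The 3 microRNAs shown beside miR-101c were chosen after their values were seen, and not for strength. Their peaks had a pileup of 2, at 34403 bp (Mir138-1), 31520 bp (Mir135a-2) and 31169 bp (Mir146). The peaks at Mir6354 and Mir7671, not shown, had a pileup of 3. miR-138 is known from the control of dendritic spine size, and miR-146a from the damping of inflammatory signalling.

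The 1216 intergenic peaks made up 22.8% of the list (95% exact binomial interval 21.7% to 24.0%). If every peak could lie anywhere on its own chromosome with equal chance, 28.7% would fall in the same zone, so that the observed share was 0.795 of the even one (0.756 to 0.835). The zone spans 801 Mb and held 1.52 peaks per Mb (1.43 to 1.61). Peaks were denser inside or touching genes, at 2.65 per Mb, and within 3 kb of genes, at 2.42 per Mb. Beyond 50 kb the density was 0.809 per Mb (0.731 to 0.894). The zone from 3 to 50 kb therefore lay between its neighbours, and its interval overlapped neither. The ratio to an even placement was 1.27 inside genes, 1.21 within 3 kb and 0.464 beyond 50 kb. When protein-coding genes alone set the zone, its ratio was 0.968, with an interval of 0.916 to 1.02 that includes 1.

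**Figure D1:**
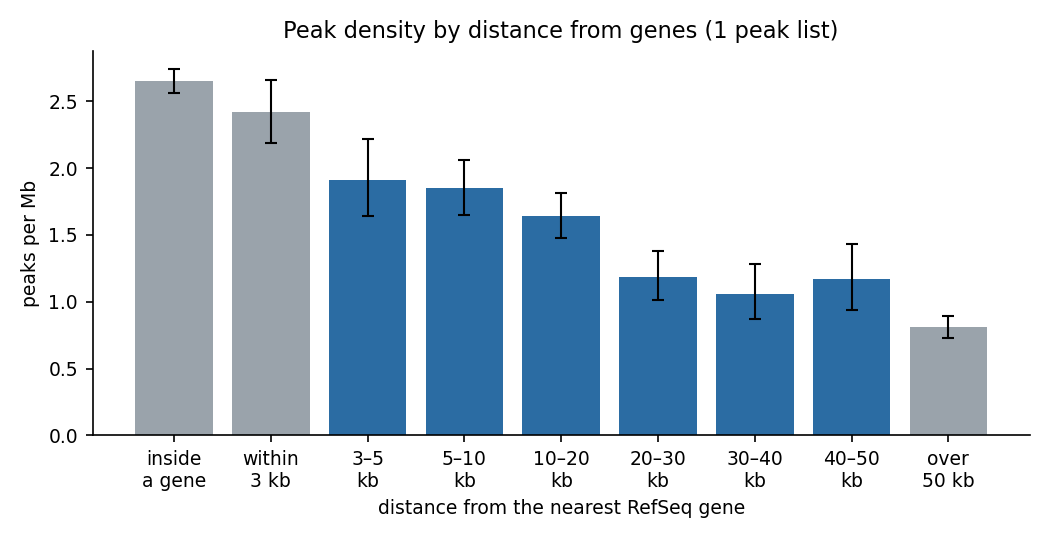
Peaks per Mb (vertical axis) by distance from the nearest RefSeq gene (horizontal axis), with the intergenic peaks 3 to 50 kb from genes in blue and the other peaks in grey. Bars are counts divided by the length of genome at that distance, and error bars are 95% exact Poisson intervals. The blue bars fall from 1.91 per Mb at 3 to 5 kb to 1.06 per Mb at 30 to 40 kb.

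Within the zone the density fell with distance in its first part. It was 1.91 peaks per Mb at 3 to 5 kb (1.64 to 2.22, 173 peaks) and 1.85 at 5 to 10 kb (319 peaks). At 10 to 20 kb it was 1.64 (1.47 to 1.82, 361 peaks). It was 1.19 at 20 to 30 kb (1.01 to 1.38, 166 peaks), below the interval of each nearer bin. The bins at 20 to 30, 30 to 40 and 40 to 50 kb, with 1.19, 1.06 and 1.17 peaks per Mb, had overlapping intervals. The median distance of a peak from its nearest gene was 12576 bp, and the middle 50% lay between 6806 and 22867 bp. The innermost peak, on chromosome 7 from 3390774 to 3391006, was 3036 bp from Cacng8, a gene of a protein that attends AMPA-type glutamate receptors, and had a pileup of 5. Just outside the limit, a peak with a pileup of 3 lay 2986 bp from the pseudogene Gm18307. The outermost peak was 49983 bp from Gm12650 with a pileup of 2, and the next one out, with a pileup of 3, was 50006 bp from Rps19-ps12.

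Most of these peaks rested on few fragments. The pileup, the number of fragments that overlap at the summit of a peak, was recovered from the fold enrichment and the −log10 p that MACS2 wrote for each peak. It was 2 in 735 of the 1216 peaks (60.4%, 57.6% to 63.2%), 3 in 201 (16.5%), 4 in 81, 5 in 65 and 6 to 9 in 109. It reached 10 in 25 peaks (2.06%, 1.33% to 3.02%). A pileup of 2 was found in 50.4% of the peaks inside or touching genes (48.7% to 52.1%), 40.1% of those within 3 kb (35.4% to 45.0%) and 71.4% of those beyond 50 kb (66.6% to 75.8%). The intervals of the 4 classes did not overlap.

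**Figure D2:**
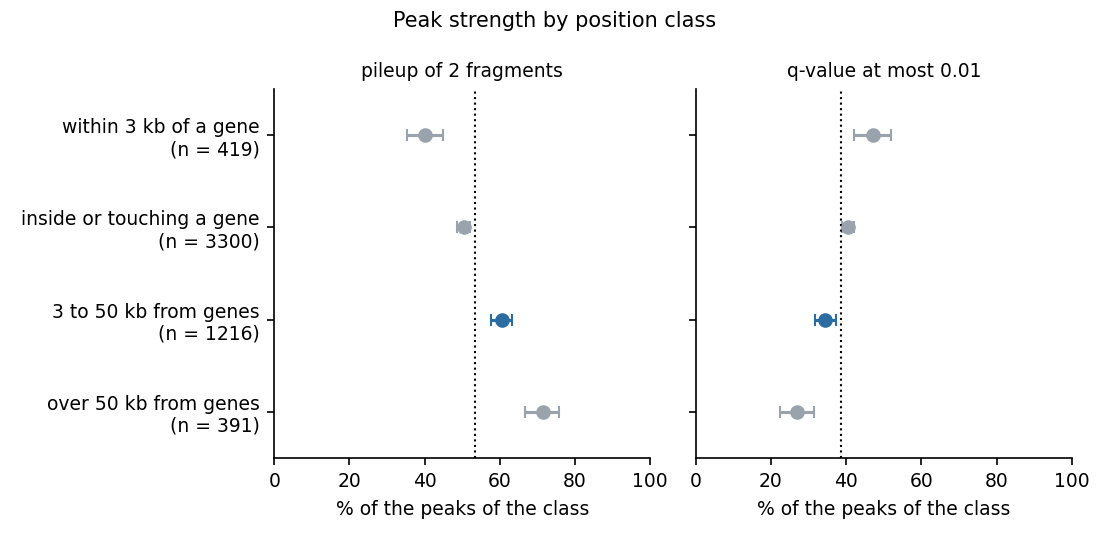
Share of peaks (horizontal axes, in %) with a pileup of 2 fragments (left) and with a q-value of at most 0.01 (right), in the 4 position classes of the list (vertical axis). Points are shares, bars are 95% exact binomial intervals, and the dotted lines mark the whole list, at 53.4% and 38.6%. The intergenic peaks 3 to 50 kb from genes, in blue, stand at 60.4% and 34.5%.

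A q-value of at most 0.01 was reached by 419 of the 1216 peaks (34.5%, 31.8% to 37.2%), against 38.6% of the whole list. A q-value of at most 0.001 was reached by 241 (19.8%, 17.6% to 22.2%), against 22.3% of the list. The fold enrichment was at least 5 in 189 (15.5%, 13.6% to 17.7%), against 17.1% of the list, which lies within that interval. Beyond 50 kb the share with a q-value of at most 0.01 was 26.9% (22.5% to 31.5%), and inside genes it was 40.5% (38.8% to 42.2%). Among the intergenic peaks this share was 41.6% at 3 to 5 kb (34.2% to 49.3%), 37.6% at 5 to 10 kb, 30.5% at 10 to 20 kb (25.8% to 35.5%), 33.1% at 20 to 30 kb, 28.0% at 30 to 40 kb and 35.6% at 40 to 50 kb (25.7% to 46.3%). In this share the intervals of all bins overlapped, which does not show that the bins were alike. Those at 3 to 5 kb and 10 to 20 kb overlapped only from 34.2% to 35.5%. A pileup of 2 was found in 50.9% of the peaks at 3 to 5 kb (43.2% to 58.5%) and 56.7% at 5 to 10 kb. It was found in 64.5% at 10 to 20 kb (59.4% to 69.5%), 64.5% at 20 to 30 kb, 67.3% at 30 to 40 kb and 60.0% at 40 to 50 kb. The intervals at 3 to 5 kb and 10 to 20 kb did not overlap, while those of every other pair of bins did.

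The median fold enrichment was 2.88 in the 1216 peaks and in the whole list, because a few pairs of values recur. The pair of 2.88 and a −log10 q of 1.57 stood at 482 of the intergenic peaks (39.6%) and at 31.2% of the list. The pair of 2.83 and 1.36 stood at 238 (19.6%), against 20.6% of the list. Both pairs belong to a pileup of 2. They differ in the background, the number of fragments that MACS2 expects at the summit from the reads around it, which was 0.0405 for the first pair and 0.0607 for the second.

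The recovered backgrounds were not continuous. In all 5180 peaks of the list with a pileup of up to 9 they were whole multiples of a step of 0.0202 or lay midway between neighbouring ones, to within 0.005 of a step, and in no peak was the number of steps below the pileup. The lowest background a peak had was therefore its pileup times 0.0202, and 674 of the 1216 intergenic peaks (55.4%, 52.6% to 58.2%) stood at this lowest value. The share was 39.5% inside genes (37.9% to 41.2%), 31.3% within 3 kb (26.9% to 35.9%) and 69.1% beyond 50 kb (64.2% to 73.6%). The order of the classes was the same among peaks of equal pileup. At a pileup of 3 the lowest background was found in 103 of 201 intergenic peaks (51.2%, 44.1% to 58.3%), in 37.1% of peaks inside genes (33.2% to 41.2%) and in 64.3% of the 42 peaks beyond 50 kb (48.0% to 78.4%), whose interval overlaps that of the intergenic peaks. At a pileup of 4 to 9 it was found in 34.1% of intergenic peaks (28.3% to 40.3%) and in 20.3% of those inside genes (17.8% to 23.0%).

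Widths were alike across the classes. The median width of the intergenic peaks was 289 bp (277 to 297), with a range of 193 to 945 bp, and the middle 50% lay between 226 and 389 bp. It was 290 bp inside genes, 270 bp within 3 kb and 282 bp beyond 50 kb. The median for a pileup of 2 was 289 bp, the same as for all 1216 peaks. A width of 500 bp or more was found in 155 of them (12.7%, 10.9% to 14.8%), against 11.5% of the list. The 6 intergenic peaks with a pileup of 100 or more had a median width of 597 bp.

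**Figure D3:**
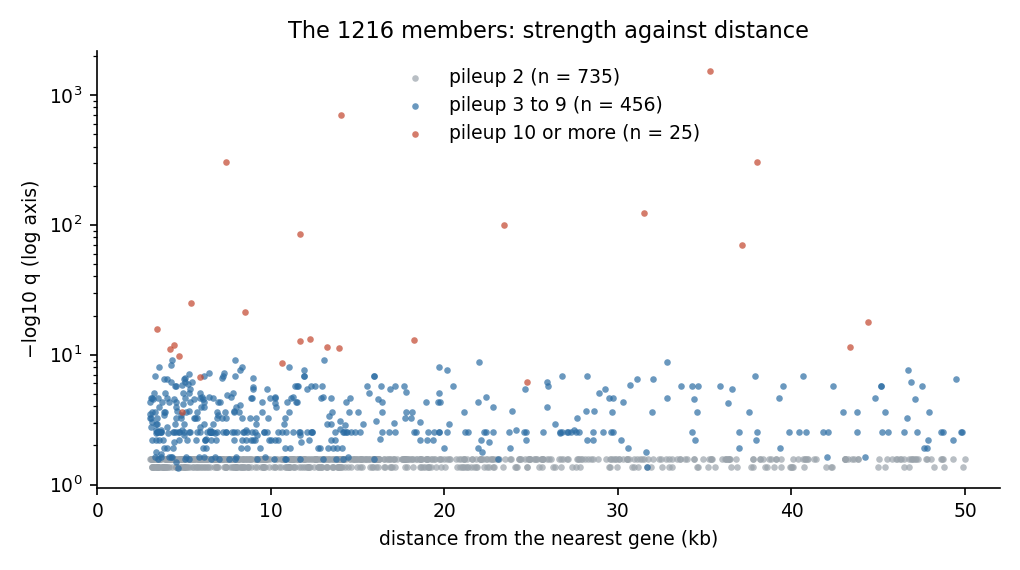
Strength of the 1216 intergenic peaks, as −log10 q on a log axis (vertical), against the distance from the nearest gene in kb (horizontal), with 1 point for each peak. Grey points have a pileup of 2, blue points 3 to 9 and red points 10 or more. Among the 735 grey points, 482 and 238 form 2 flat bands near the bottom, and the 25 red points are spread from 3430 bp (Mir101c) to 44428 bp (Gm29726).

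A small number of intergenic peaks held a large part of the fragments. The pileups of the 1216 peaks summed to 7201, of which the peak with the highest −log10 q held 23.9% and the 8 with the highest pileups 48.3%. Ranked by −log10 q, the list had 5 of its first 10 peaks in this zone (50%, 18.7% to 81.3%). Those at ranks 2, 3 and 9 lay beside Mir101c. The zone held 12 of the first 50 (24%, 13.1% to 38.2%) and 111 of the first 500 (22.2%, 18.6% to 26.1%). Each of these intervals includes the 22.8% of the whole list in this zone. The peak at the top of the list, on chromosome 2 from 98666550 to 98667310, had a pileup of 1720 over a background of 84.5, and its fold enrichment of 20.1 was below the 34.5 of a peak with 263 fragments. That peak, on chromosome 12 from 120028662 to 120028960, lay 7420 bp downstream of Tmem196 and had a background of 6.66. The nearest protein-coding gene of the top peak was Lrrc4c, which encodes a netrin-G ligand of synapses, at 1034878 bp.

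Mir101c was the nearest gene of 7 peaks near the first assembled base of chromosome 9, which lay 3430 to 38015 bp from it. Their pileups ranged from 6 to 668 and their fold enrichments from 5.63 to 28.3. Their backgrounds ranged from 0.192 to 22.7, against a median of 0.0607 for the 1216 peaks. Whether these 7 peaks or the peak at the top of the list lie in repeated sequence was not tested. The 7 peaks held 1369 of the 7201 fragments in the summed pileup of the intergenic peaks. The nearest protein-coding gene of all 7 was Alkbh8, a tRNA-modifying enzyme, at 287376 to 334577 bp.

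Further down the ranking, 2 peaks had close to 90 fragments. On chromosome 3 from 149052488 to 149052852, a peak with a pileup of 90 and a fold enrichment of 26.7 lay 63392 bp upstream of Adgrl2, a latrophilin that acts in synaptic adhesion. On chromosome 2 from 182012769 to 182013133, a peak with a pileup of 87 and a fold enrichment of 20.9 lay 11682 bp from Gm14496, a predicted protein-coding gene. The pileups then dropped. A peak on chromosome 14 near the pseudogene Gm49060 had 23 fragments, and 1 on chromosome 2 from 29533333 to 29533552, 8543 bp downstream of Med27, a subunit of the Mediator complex, had 20. The peak near Gm29726 on chromosome 1 had 18, and its nearest protein-coding gene was Cr2, a complement receptor, at 64688 bp. Those near Platr27 and Gm14465 on chromosome 2 had 13 and 14, with Blcap and Itga4 as the nearest protein-coding genes, at 16717 and 75258 bp. The peak 11668 bp downstream of Anapc13, a subunit of the anaphase-promoting complex, had 12. Of the first 15 intergenic peaks in this ranking, 6 lay on chromosome 9 and 5 on chromosome 2, and 4 had a protein-coding gene as the nearest gene.

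Distances to the next peak were set beside those of an even spread. In all, 41 of the 1216 (3.37%, 2.43% to 4.55%) had another peak of the list within 10 kb, where an even spread at the density of each chromosome would give 4.09%, which lies within that interval. Within 50 kb the share was 21.3% (19.03% to 23.71%), above the 18.8% of an even spread. For a neighbour within 10 kb, the shares of the other classes were 4.85% inside genes, 6.44% within 3 kb of genes and 1.02% beyond 50 kb. For a neighbour within 50 kb they were 26.6%, 31.7% and 13.6%, in the same order. Between 1 and 5 kb from the next peak there were 5 peaks (0.411%, 0.134% to 0.957%), against 1.65% for an even spread, and between 5 and 10 kb there were 32 (2.63%, 1.81% to 3.69%), against 2.02%. From 10 to 20 kb the share was 5.51% (4.30% to 6.94%), above the 3.92% of an even spread. In the whole list, too, 0.732% of peaks had the next peak at 1 to 5 kb (0.521% to 1.00%), against 1.68% for an even spread. The background of a peak comes from the reads around it, so a near neighbour can raise it. An even spread has no such limit. Neither an effect of peak calling on the low shares at 1 to 5 kb nor a spacing of binding sites was tested.

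**Figure D4:**
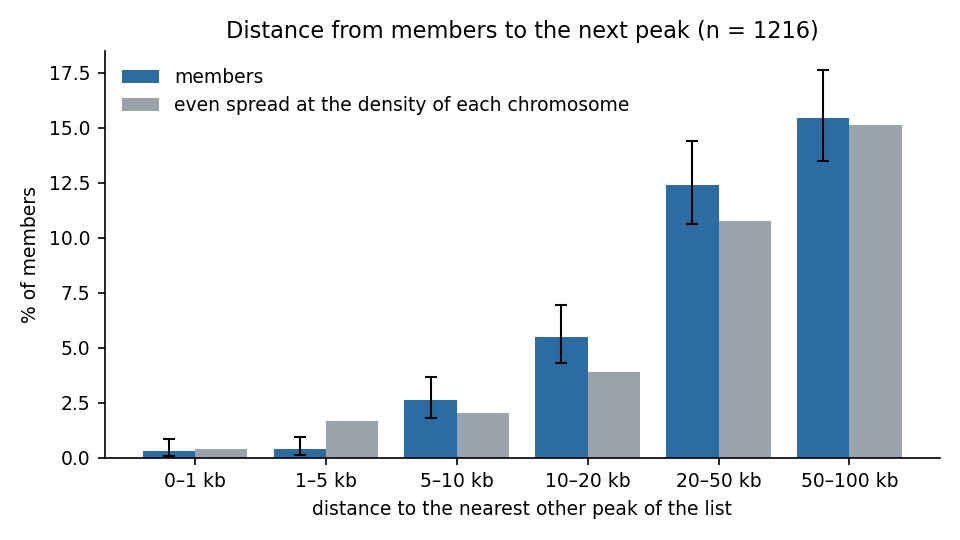
Share of the 1216 intergenic peaks (vertical axis, in %) by the distance to the nearest other peak of the list (horizontal axis). Blue bars are the observed shares with 95% exact binomial intervals, and grey bars are the shares of an even spread at the density of each chromosome. At 1 to 5 kb the blue bar, 0.411%, is below the grey bar, 1.65%. The even spread does not model peak calling.

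When intergenic peaks alone were joined in steps of up to 10 kb, 1186 stood by themselves, 12 pairs formed, and 2 runs held 3 peaks each. Both runs were beside Mir101c, from 3000299 to 3007186 and from 3024047 to 3035239 on chromosome 9. The 41 peaks with another peak within 10 kb had a q-value of at most 0.01 in 51.2% (35.1% to 67.1%), and the 1175 others in 33.9% (31.2% to 36.7%), so the intervals overlapped. The 41 include both runs beside Mir101c, whose peaks all reached that limit. These intervals count neighbouring peaks as independent.

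The density differed little between most autosomes and was lower on the sex chromosomes. Over the autosomes there were 1.66 intergenic peaks per Mb of the zone (1.56 to 1.76), from 1.17 on chromosome 18 (0.800 to 1.65) to 2.11 on chromosome 11 (1.63 to 2.70). Chromosome X held 42 peaks, 0.613 per Mb (0.442 to 0.829), and chromosome Y held 6, 0.209 per Mb (0.0768 to 0.456). Chromosome 2, with 100 peaks and 2.06 per Mb (1.68 to 2.51), and chromosome 8, with 42 and 1.19 per Mb (0.860 to 1.61), had intervals that missed the autosomal mean, as did chromosome 18. As a share of its own peaks, the zone took 32.6% on chromosome X (24.6% to 41.4%), against 22.5% on the autosomes (21.4% to 23.7%). Chromosomes differ in how much of their length lies in the zone, which spans 68.5 Mb of chromosome X, so these shares alone show no enrichment. The ratio to an even placement was 0.793 on the autosomes (0.753 to 0.834) and was not computed for chromosome X alone.

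**Figure D5:**
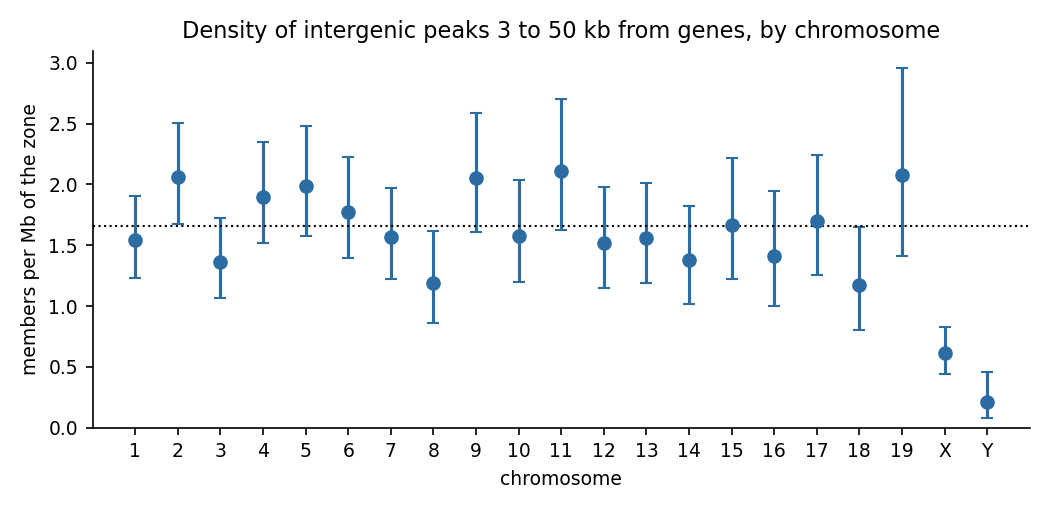
Intergenic peaks per Mb of the zone 3 to 50 kb from genes (vertical axis) on each chromosome (horizontal axis). Points are densities, bars are 95% exact Poisson intervals, and the dotted line is the mean of the autosomes, 1.66. Chromosomes X and Y, at 0.613 and 0.209, lie below it with their whole intervals.

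The nearest gene was protein coding for 461 peaks (37.9%, 35.2% to 40.7%), a lncRNA for 415 (34.1%, 31.5% to 36.9%), a pseudogene for 270 (22.2%, 19.9% to 24.6%) and a small RNA gene for 70 (5.76%). Over all positions of the zone these shares were 35.3%, 28.2%, 29.9% and 6.53%. Next to lncRNA genes the share of peaks was thus above that of positions, and next to pseudogenes it was below, with intervals that missed the share of positions. A predicted gene with a Gm number was the nearest one for 636 peaks (52.3%). The share with a q-value of at most 0.01 was 35.6% for protein-coding genes, 34.7% for lncRNAs, 31.5% for pseudogenes (26.0% to 37.4%) and 37.1% for small RNA genes (25.9% to 49.5%), with intervals that overlapped. A protein-coding gene lay within 50 kb of 744 peaks (61.2%, against 53.4% of positions), and for 202 peaks the nearest one was over 200 kb away.

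The strand of the nearest protein-coding gene was known for 959 peaks. Of these, 501 lay upstream of the gene and 458 downstream, which makes 52.2% upstream (49.0% to 55.4%), against 52.9% of all positions of the zone. Where the gene was 3 to 10 kb away, 109 of 200 peaks lay upstream (54.5%, 47.3% to 61.5%), against 51.9% of positions. No preference for the side of the start was thus detectable with these numbers.

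The peaks were scattered over many genes, with 1075 different protein-coding genes as the nearest, or 4.91% of the 21887. Of these, 951 had 1 peak, 114 had 2, and 10 had 3 or more. After Alkbh8, with 7 peaks, came Adgrl2, Nphp4 and Grik3 with 4 each. Grik3 encodes a kainate-type glutamate receptor subunit. Its 4 peaks had pileups of 6, 2, 2 and 2. Of these, 3 lay 45626, 53029 and 64807 bp upstream and 1 lay 6407 bp downstream. At Adgrl2 the pileups were 90, 8, 2 and 2, at distances of 24078 to 982576 bp. Nphp4, a gene of primary cilia, had all 4 peaks downstream, with a highest pileup of 6. The genes with 3 peaks included Trib2, a pseudokinase, with peaks 169528 to 331499 bp upstream, Celf2, an RNA-binding regulator of splicing in neurons, with 1 peak upstream and 2 downstream, the cadherin Cdh10, Gcfc2, 4930591A17Rik and Cd83, an immune surface protein.

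Gene lists for signalling, synapse, channel, transcription factor and cell identity genes were then compared with the nearest protein-coding genes. Genes differ in how much of the zone lies nearest to them, so each list's share of the peaks is given beside its share of the positions of the zone. Over all protein-coding genes, 4.91% were the nearest one of a peak. Several genes stand in more than 1 list.

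TGF-β and BMP signalling, the pathway that Smad4 serves, had 7 of its 80 genes as the nearest gene of a peak (8.75%), with 1 peak each. They took 0.576% of the peaks (0.232% to 1.18%) and 0.534% of the positions. Bmp7 and Bmp4 encode BMP ligands. A peak with a pileup of 6 and a fold enrichment of 6.13 lay 55983 bp from Bmp7, and 1 with a pileup of 3 lay 5029 bp upstream of Bmp4, on chromosome 14 from 46395698 to 46395929. Id3 and Id4 encode inhibitors of basic helix-loop-helix factors and are BMP target genes. The peak at Id4, 41525 bp downstream, had a pileup of 4, and that at Id3, 35803 bp upstream, had 3. Inhbb, an activin subunit gene, had a peak with a pileup of 2 at 79809 bp. Of the 7 peaks, 3 had a q-value of at most 0.01, against 34.5% of all intergenic peaks. In the Hippo list, whose genes control growth through Yap1 and the Tead factors, 6 of 48 genes had 1 peak each. They took 0.493% of the peaks (0.181% to 1.07%) and 0.355% of the positions. A q-value of at most 0.01 was reached by 0 of the 6, against 34.5% of all intergenic peaks, and no difference can be read from so few peaks. The strongest, with a pileup of 3, lay 22180 bp upstream of Rassf6, and those at Vgll2, Stk3, Fat4 and Ptpn14 had a pileup of 2.

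Glutamate, GABA and glycine receptors had 3 of 52 genes with peaks, which were Grik3, Gabrr2 and Gria1, and 6 peaks in all (0.493%, 0.181% to 1.07%, against 0.708% of positions). The AMPA receptor gene Gria1 was the nearest one of a peak with a pileup of 2 at a distance of 438925 bp. Synaptic adhesion and scaffold genes had 9 of 70 and 14 peaks (1.15%, 0.631% to 1.92%, against 1.47%). Beside Adgrl2 they included Flrt2, a ligand of latrophilins, with pileups of 7 and 2 at 806079 and 1089615 bp, and Slitrk5, Slitrk4 and Cntnap4, each with a highest pileup of 3. Cadherins and protocadherins had 10 of 41 genes and 13 peaks (1.07%, 0.570% to 1.82%, against 1.70%). The 3 peaks of Cdh10 had pileups of 5, 3 and 2 and lay 663201 to 838539 bp away, while the peak at Cdh6, with a pileup of 3, lay 43785 bp upstream. In these 3 lists the share of positions lay within the interval of the share of peaks.

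Axon guidance genes had 10 of 71 and 12 peaks (0.987%, 0.511% to 1.72%, against 1.05%). Ephb1, an ephrin receptor, had a peak with a pileup of 5 at 29720 bp downstream and 1 with a pileup of 3 at 39314 bp upstream. Plxnc1, a semaphorin receptor, had 2 peaks, with pileups of 3 and 4, and Slit3 had 1 with 3 at 10849 bp downstream. The peaks at Epha4 and Efna5 had a pileup of 2. Voltage-gated and potassium channels had 10 of 110 genes and 12 peaks (0.987%, 0.511% to 1.72%, against 0.804%). The strongest of them, with a pileup of 6 and a fold enrichment of 6.24, lay on chromosome 6 from 126658125 to 126658643, 12324 bp from Kcna1, the gene of a potassium channel of axons. Kcnd2, which carries the A-type current of dendrites, was the nearest gene of a peak with a pileup of 5 at 801116 bp. The pileup was 4 at Kcnk12, 3 at Scn3a and 2 at Kcnj16.

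Transcription factors of neural development had 18 of 103 genes and 21 peaks (1.73%, 1.07% to 2.63%, against 2.08%). Nr2f1, which patterns cortex and hippocampus, was nearest to a peak with a pileup of 6, but at 1008172 bp. Sox8 had a peak with a pileup of 5 at 22752 bp downstream, and Tshz2 had 2 and Pou3f3 had 1, with pileups of up to 4, at 248760 bp or more. Immediate early genes, which neurons switch on with activity, had 6 of 41 genes and 7 peaks (0.576%, 0.232% to 1.18%, against 0.362%). A q-value of at most 0.01 was reached by 4 of the 7, against 34.5% of all intergenic peaks, and no difference can be read from so few peaks. Several lay within a few kb of the gene. The peak 5589 bp upstream of Maff, on chromosome 15 from 79340837 to 79341032, had a pileup of 5. Nr4a1, a nuclear receptor gene, had a peak with a pileup of 3 at 3383 bp downstream, and Gadd45b had 1 with 4 at 3656 bp. Bdnf, the gene of the neurotrophin that supports synaptic plasticity, had a peak with a pileup of 3 at 22775 bp downstream, on chromosome 2 from 109749818 to 109750054. The 2 peaks at Gadd45g had a pileup of 3 and lay 186075 and 193530 bp away.

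Genes that mark glia and vessels had 7 of 47 as nearest genes and 9 peaks. They took 0.740% of the peaks (0.339% to 1.40%) and 0.215% of the positions, and among the lists this was the one whose share of positions lay below the interval, which was not adjusted for the number of lists. The strongest of these peaks lay on chromosome 7 from 128057254 to 128057455, 5185 bp upstream of Itgam, which encodes an integrin of microglia, and had a pileup of 9 and a fold enrichment of 8.18. C1qb, a complement gene of microglia, had a peak with a pileup of 5 at 11169 bp downstream. Cx3cr1, the fractalkine receptor of microglia, had 1 peak on either side, at 5851 and 8451 bp, with pileups of 3 and 2. Olig1, a factor of the oligodendrocyte lineage, had a peak with a pileup of 4 at 13494 bp, and Pdgfra, a marker of oligodendrocyte precursors, had 1 with 2 at 29746 bp. A q-value of at most 0.01 was reached by 3 of the 9 peaks, near the 34.5% of all intergenic peaks.

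Olfactory and vomeronasal receptor genes, which lie in large clusters, had 23 of 1463 genes and 24 peaks. They took 1.97% of the peaks (1.27% to 2.92%) and 3.82% of the positions, which lies above the interval. The highest pileups were 7 at 15371 bp from Vmn1r15, 5 at Vmn2r103 and 4 at 3847 bp from Olfr509, and the peaks at Olfr161 and Olfr1301 had pileups of up to 3.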

How the data were processed

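Cut&Tag was measured in 2 libraries, 1 for each antibody, and 1 peak list was analysed. The submitters' processing notes name BWA, MACS2, HOMER and mm10. The authors kept uniquely mapped reads and ran MACS2 with a cutoff of 0.05. For each peak the authors deposited a position, a score and a fold enrichment, which is a ratio to the local background. They also deposited −log10 of its p-value and q-value. The handling of duplicates, the use of a control in peak detection and the read depth are not given in the sources used here.

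Starts were counted from 1. Distances ran from the interval to the nearest of 49943 RefSeq genes, with overlap as 0. One peak had 2 genes equally near, and the first by position was taken. Shares for an even placement were computed exactly over all positions of each interval between the first and last gene or peak of its chromosome, without leaving out assembly gaps, and shares of zone positions at every 100th base. The even spread of neighbours was the exponential distribution at each chromosome's density, on both sides of a peak. Pileup n and background b came from (n + 1) / (b + 1) and the Poisson probability of more than n fragments. Strands were taken from the RefSeq promoter table. Intervals are Clopper-Pearson, Poisson, or order-statistic ones for medians, at 95%. The recovery of pileups, the distances to genes and the shares of an even placement were tested on simulated data, and the other steps were not. Genes were named by fixed rules: the genes nearest to the first 15 intergenic peaks by −log10 q, the 10 genes with the most peaks, up to 5 genes per list by −log10 q, and the peaks at the limits. The zone, lists and rules were chosen with earlier results of these data known. Python 3.11.15, NumPy 2.4.6, pandas 2.3.3, SciPy 1.17.1 and Matplotlib 3.10.9 were used.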

Additional observations from a re-analysis of the deposited data

How the results depend on the processing

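No paired analysis was possible because either antibody had a single library and 1 peak list was analysed. Of the peaks, 60.4% rest on 2 fragments at the summit, and the read depth behind them is not known here. Of 82 values recomputed, 52 stayed within 1.5 times the count or within the interval. By construction, stricter limits lowered the count of 1216, to 419 (q-value up to 0.01), 241 (q-value up to 0.001), 189 (fold enrichment from 5) and 481 (pileup from 3, a limit chosen after seeing the data). Under these limits, in that order, the zone held 20.4%, 20.3%, 20.7% and 19.4% of the list, and the ratio to an even placement was 0.710, 0.706, 0.720 and 0.678. The cause was not tested. With protein-coding genes alone the share was 19.7%, the ratio 0.968, and 100% had a protein-coding nearest gene. The share was 19.6% from 5 kb and 27.1% up to 100 kb, where the ratio was 0.748. Peaks of fold enrichment from 5 all (100%) had a q-value up to 0.01, as did 87.1% of those of pileup from 3. The median fold enrichment was 4.63 and 5.90 under the q-value limits, and 4.54 for pileups from 3. The median width was 274 bp for fold enrichments from 5. Another peak within 10 kb was found for 2.15% (q-value up to 0.01) and 4.76% (fold enrichment from 5), where only peaks past the limit counted. The even spread at these lower densities was not computed, so these shares cannot be set against the 4.09% for the full list. With all peaks, the share within 5 kb was 0.740%, against 2.07% for an even spread, and within 50 kb 21.3%, against 18.8%. The list genes with a peak numbered 107 in all, 36 for q-values up to 0.01 and 41 by the nearest gene of any type.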
